A study of Mus musculus with 4 samples.

Results

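Sox6, Lhx6, Satb1, Prox1, Npas1, Npas3 and Maf encode transcription factors of cortical interneurons, the neurons of the cortex that release GABA. These 7 genes, of 33696 in the deposited tables, were followed in the interneuron nuclei of adult mouse cortex and compared between non-pregnant and pregnant females. The set was chosen by measured values of these same data, the UMIs of Sox6 in Lamp5 neurons of pregnant against non-pregnant libraries among them, so that contrast is described here without a test. Nuclei counted as interneurons when they held at least 3 UMIs (unique molecular identifiers, 1 per captured RNA molecule) of Gad1 and Gad2 together, the enzymes that make GABA, and at most 1 UMI of Slc17a7, the vesicular glutamate transporter of excitatory neurons. The rule took 2350 of 25033 nuclei: 623 and 578 in the non-pregnant and 588 and 561 in the pregnant libraries. Just inside the first limit stood 276 nuclei with 3 UMIs of Gad1 and Gad2, and just outside it 313 with 2. At the second limit 305 nuclei with 1 UMI of Slc17a7 were kept, and 37 with 2 were not.

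The study profiled single nuclei of microdissected cortex from wild-type C57BL/6JRj females aged about 12 weeks. The non-pregnant control group and the group taken at E13.5 of pregnancy had 2 libraries each, which the labels call biological replicates. No other treatment or allele is named. Which area of cortex was dissected is not named in the labels.

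Cortical interneurons are born outside the cortex, mostly in the medial and the caudal ganglionic eminence of the embryonic forebrain. In cells of the medial eminence the factor Nkx2-1 turns on Lhx6, a LIM-homeodomain protein, and Sox6 and Satb1 act downstream in the maturation of the Pvalb and Sst interneurons. Prox1, a homeobox factor of the prospero family, acts in interneurons of the caudal eminence, which supplies the Vip class and most of the Lamp5 class. Npas1 and Npas3 are related factors with a basic helix-loop-helix and a PAS domain. Maf is a basic leucine zipper factor that bears on the fate and maturation of interneurons from the medial eminence.

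The sequences before the listed starts of 6 of the 7 genes were available from RefSeq on build GRCm38.p6, an earlier build than the GRCm39 of the deposited counts. Maf had no entry. The letters ACAAT, a core bound by SOX proteins, were searched on both strands in the 250 bases upstream of each start, and 27.7% of 32851 windows of the same length held them. They occurred before 3 of 6 listed starts of Sox6, 1 of 3 of Lhx6, 0 of 5 of Satb1, 0 of 2 of Prox1, 0 of 1 of Npas1 and 0 of 1 of Npas3. A match is a description of the letters, and which start is used in these nuclei is not known. Shown are 3 windows from genes that divide the interneuron classes below: a Sox6 window at chr7:115801610-115801859 with 3 matches, an Lhx6 window at chr2:36104061-36104310 with 2, and a Prox1 window at chr1:190170828-190171077 with 0, all on the minus strand, 5′ to 3′, with the matched letters in capitals (ACAAT, or ATTGT where the match lies on the other strand).
Sox6 upstream window: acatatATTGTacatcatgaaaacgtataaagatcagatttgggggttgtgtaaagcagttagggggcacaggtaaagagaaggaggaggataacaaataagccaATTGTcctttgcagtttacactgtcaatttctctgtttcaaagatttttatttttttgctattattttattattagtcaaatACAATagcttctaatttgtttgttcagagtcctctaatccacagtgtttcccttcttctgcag
Lhx6 upstream window: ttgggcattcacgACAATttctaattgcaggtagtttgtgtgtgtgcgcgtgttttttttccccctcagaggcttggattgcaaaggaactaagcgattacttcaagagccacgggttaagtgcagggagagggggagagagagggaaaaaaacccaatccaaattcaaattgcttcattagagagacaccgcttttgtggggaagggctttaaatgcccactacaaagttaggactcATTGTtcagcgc
Prox1 upstream window: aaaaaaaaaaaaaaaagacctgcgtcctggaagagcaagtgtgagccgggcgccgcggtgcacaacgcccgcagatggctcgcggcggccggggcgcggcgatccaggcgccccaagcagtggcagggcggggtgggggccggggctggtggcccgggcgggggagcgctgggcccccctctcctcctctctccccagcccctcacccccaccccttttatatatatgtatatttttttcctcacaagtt

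Each library held 6357 to 6932 barcodes with a median of 13187.5 to 17723 UMIs, and the gated nuclei had a median of 11818 UMIs in non-pregnant 1, 16185.5 in non-pregnant 2, 13944 in pregnant 1 and 13186 in pregnant 2. Non-pregnant 2 was the deepest. Pairs of libraries shared 15 to 26 barcodes, and none of these was a gated nucleus. Clustering without the 7 genes gave 925 nuclei of the Pvalb-like class, 442 Sst-like, 345 Vip-like, 417 Lamp5-like and 58 Sncg-like, named here by their marker gene. The smallest class sum among the first 4 classes was 71 Vip nuclei in pregnant 1. The Lamp5 marker list summed to 1862 to 1930 CPM (UMIs per 1e6 UMIs of the summed nuclei) in the Lamp5 class, all 12 genes present in every library, and the Pvalb list of 8 genes to 21.4 to 31.4 CPM there against 310.2 to 343 in the Pvalb class. Other lists were not absent from a class. The Vip list summed to 111 to 132 CPM in the Pvalb class. In the Vip class the Sst list summed to 385 to 421 and the Sncg list to 356 to 440 CPM, against 682 to 1088 for the Vip list. In the Lamp5 class the Sncg list summed to 310 to 368, the astrocyte list to 138 to 185 and the Sst list to 97.8 to 163 CPM. A further 163 nuclei stayed without a class: 49, 18 and 11 in clusters led by genes of oligodendrocyte precursors, oligodendrocytes and microglia, and 85 in a cluster whose best list was Sst but whose leading genes held Rgs9 of the striatal list and none of the Sst list. Haemoglobin genes of red cells, a list of 3, summed to between 0 and 4.76 CPM in the non-pregnant sums of the 4 classes and to between 8.27 and 24.2 CPM in the pregnant sums, and the part of such carried-over RNA in any value below was not tested.

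Sox6 divided the interneuron nuclei almost completely. In the Pvalb class the 4 libraries (non-pregnant 1, non-pregnant 2, pregnant 1, pregnant 2, the order used throughout) held 959.9, 999.8, 1090.0 and 1069 CPM. In the Sst class they held 1119.9, 1129, 1055 and 1046 CPM. The Vip class held 20.0, 12.9, 53.0 and 3.46 CPM, and the Lamp5 class 1.35, 2.97, 9.78 and 10.7 CPM. Every library of the first pair of classes was therefore far above every library of the second pair, while Pvalb and Sst overlapped with each other. At least 1 Sox6 UMI was present in 99.1% of Pvalb, 96.4% of Sst, 2.32% of Vip and 1.44% of Lamp5 nuclei. After each nucleus was thinned to 4000 UMIs the shares were 94.9%, 90.7%, 1.76% and 0.966%. A typical Pvalb nucleus carried a median of 12, 18, 16 and 14 Sox6 UMIs by library and an Sst nucleus 14, 18, 15.5 and 14. Differences between classes are descriptions here, because the classes come from the same nuclei.

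**Figure D1:**
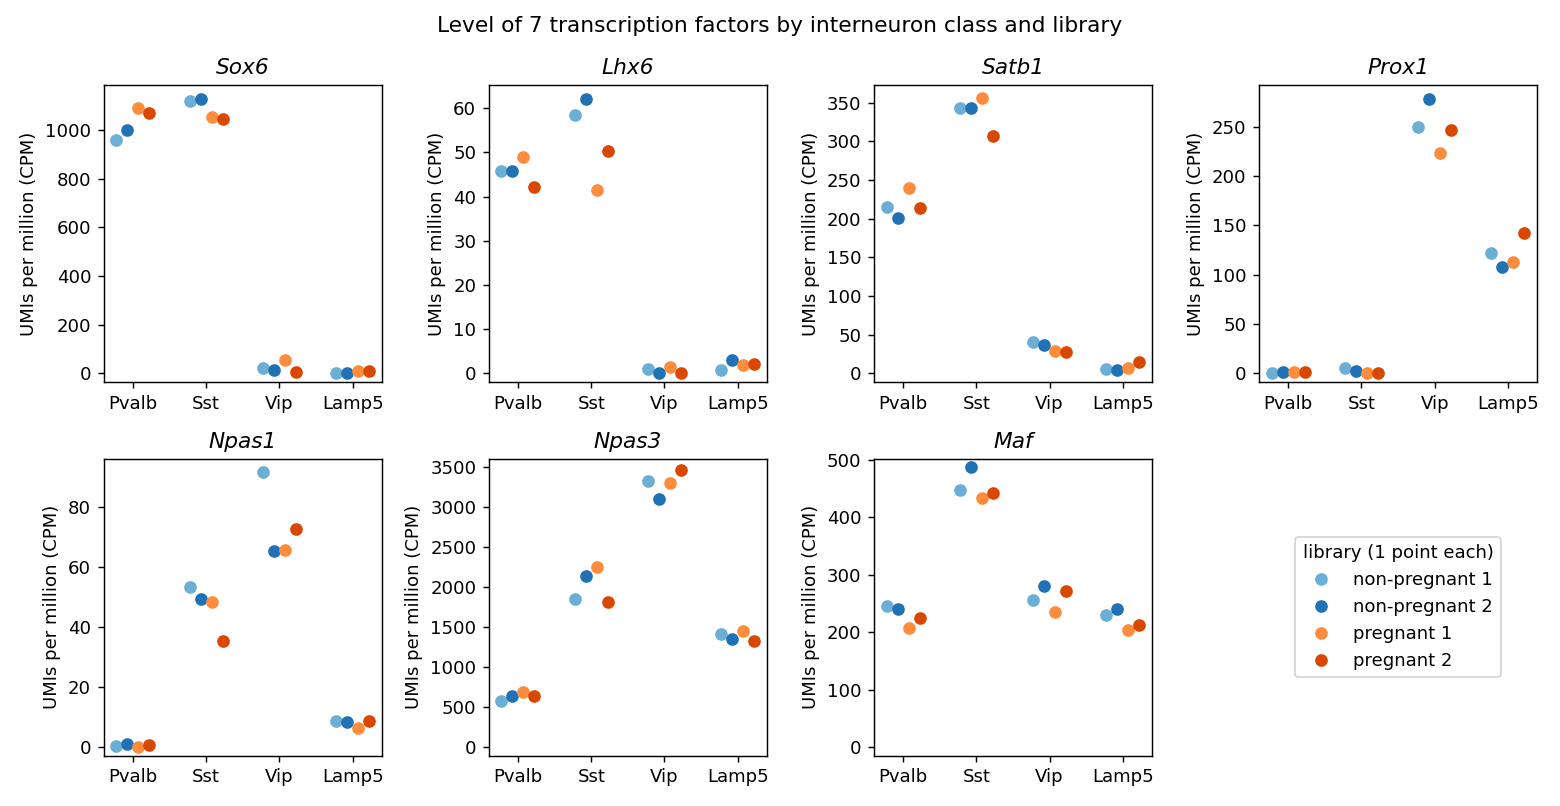
CPM (linear axes, 1 panel per gene) of the 7 transcription factors in the summed nuclei of each interneuron class, with 1 point per library. Sox6, Lhx6 and Satb1 lie high in Pvalb and Sst, Prox1 lies high in Vip and Lamp5, and within a class the non-pregnant (blue) and pregnant (orange) points lie close together for most genes.

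Sox6 in Lamp5 neurons came down to 6 nuclei of 417, or 1.44% (Wilson 95% interval 0.661 to 3.10, for counting error only), with 33 UMIs in all. Of these, 3 were among 234 non-pregnant nuclei (1.28%, 0.437 to 3.70) and 3 among 183 pregnant nuclei (1.64%, 0.559 to 4.71). The shares lay close together, while the UMI totals did not: the non-pregnant nuclei held 1, 1 and 5, a total of 7, and the pregnant nuclei 2, 9 and 15, a total of 26. A single nucleus gave 71.4% of the non-pregnant UMIs and another 57.7% of the pregnant UMIs. Without the top nucleus of each group 2 and 11 UMIs remained. Thinning to 4000 UMIs per nucleus left 2 UMIs in 1 non-pregnant and 3 UMIs in 3 pregnant nuclei. For background, 1.80% of 12198 excitatory nuclei (median 17421.5 UMIs), a type that should lack the gene, had a Sox6 UMI, as did 1.25% of 1043 microglia (median 2881). At full depth the Lamp5 share of 1.44% was thus no higher than that of excitatory nuclei. Thinned to 4000 UMIs it was 0.966%, on 4 nuclei, against 0.361% of excitatory nuclei. The level went the same way as the thinned share, with 5.80 CPM over all Lamp5 nuclei against 1.32 CPM in excitatory nuclei (1.20, 0.785, 1.42 and 2.11 by library), so no order between the cell types is read from the share. Microglia held 11.6 CPM (5.58, 15.1, 3.42 and 20.1 by library) and, thinned, a Sox6 UMI in 4.65% of 129 nuclei. Oligodendrocytes held 40.8 CPM (81.4, 34.1, 38.1 and 6.805 by library) and, thinned, a Sox6 UMI in 4.05% of 642 nuclei. Over the 4 libraries together these values lay above those of Lamp5 nuclei, though the levels did not in every library. Only nuclei with at least 4000 UMIs were thinned: 129 of 1043 microglia and 642 of 1646 oligodendrocytes, against 414 of 417 Lamp5 nuclei. The thinned glial shares thus describe the deeper nuclei only. At full depth the shares were 1.25% of microglia and 2.73% of oligodendrocytes, against 1.44% of Lamp5 nuclei.

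The 6 nuclei were spread over all 3 Lamp5 clusters. The pregnant nucleus with 15 Sox6 UMIs was the deepest, with 28790 UMIs against a median of 12945 for Lamp5 nuclei of its library, and carried 3 UMIs each of Satb1 and Pvalb and 1 of Lhx6 beside 2 of Prox1. The nucleus with 9 had 24309 UMIs against a median of 12459. The non-pregnant nucleus with 5 had 14241 UMIs, below its library's median of 15297, and carried 1 Lhx6 UMI and no Prox1. Its doublet score ranked highest of the 6, with 6.12% of nuclei in its library at that score or above. It held 1 UMI of Adarb2, a gene of the caudal eminence list below, where the others held 55 to 339. Lhx6 was present, at 1 UMI, in 3 of the 6. Pdgfra, which marks oligodendrocyte precursors, another cell type with Sox6, and Nkx2-1 were at 0 in all 6. The whole precursor list of 4 genes summed to 108 and 119 CPM in the non-pregnant Lamp5 sums. In the pregnant ones it summed to 144 and 163 CPM. By library 2, 3, 3 and 1 of the 4 genes were at 0. In non-pregnant 2 and pregnant 1 a single gene thus made up the whole sum. The part of the list in the Sox6 values was not tested.

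How few nuclei carried Sox6 depended on how the Lamp5 class was drawn. With at least 6 UMIs of Gad1 and Gad2 and no Slc17a7, and the nuclei clustered anew, 5 non-pregnant nuclei held 62 Sox6 UMIs and 11 pregnant nuclei held 243. All carriers added by that setting had no class in the main clustering. They lay there in the clusters led by genes of oligodendrocyte precursors or of oligodendrocytes. With the Slc17a7 limit lifted, a setting chosen after seeing the data, 3 nuclei held 7 and 8 held 167, and 4 of the 5 added carriers belonged to the cluster led by precursor genes in the main clustering, among them a nucleus with 81 Sox6 UMIs. That cluster of 49 nuclei held Sox6 in 32, at 647, 1213, 980.1 and 593 CPM, so the groups overlapped there. With classes set by the marker genes Pvalb, Sst, Vip and Lamp5 alone, 3 nuclei held 22 and 4 held 50. By the main clustering, the carriers added here were Pvalb nuclei with 20 and 24 Sox6 UMIs and an Sst nucleus with 15. Without doublet removal the 7 and 26 UMIs did not move.

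In single nuclei Sox6 and Prox1 seldom met. Of 925 Pvalb nuclei 905 had Sox6 alone, 12 had both, 8 had neither and 0 had Prox1 alone. The Sst class held 422 with Sox6 alone, 4 with both and 16 with neither. In the Vip class 262 nuclei had Prox1 alone, 2 Sox6 alone, 6 both and 75 neither, and in the Lamp5 class 302, 2, 4 and 109. The 8 Vip carriers of Sox6 fell into a low set of 1 to 3 UMIs in 4 nuclei and a high set of 12, 17, 19 and 20 UMIs. The high set all lay in cluster 13 and had 18465 to 32593 UMIs in all, where the Vip medians by library were 8889.5 to 12081. The only Sncg carrier had 21 Sox6 UMIs and 26242 UMIs in all. Deep nuclei of this kind had passed the doublet filter, which removed the top 5% of scores in each library, and their part in the Vip and Lamp5 values was not tested.

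**Figure D2:**
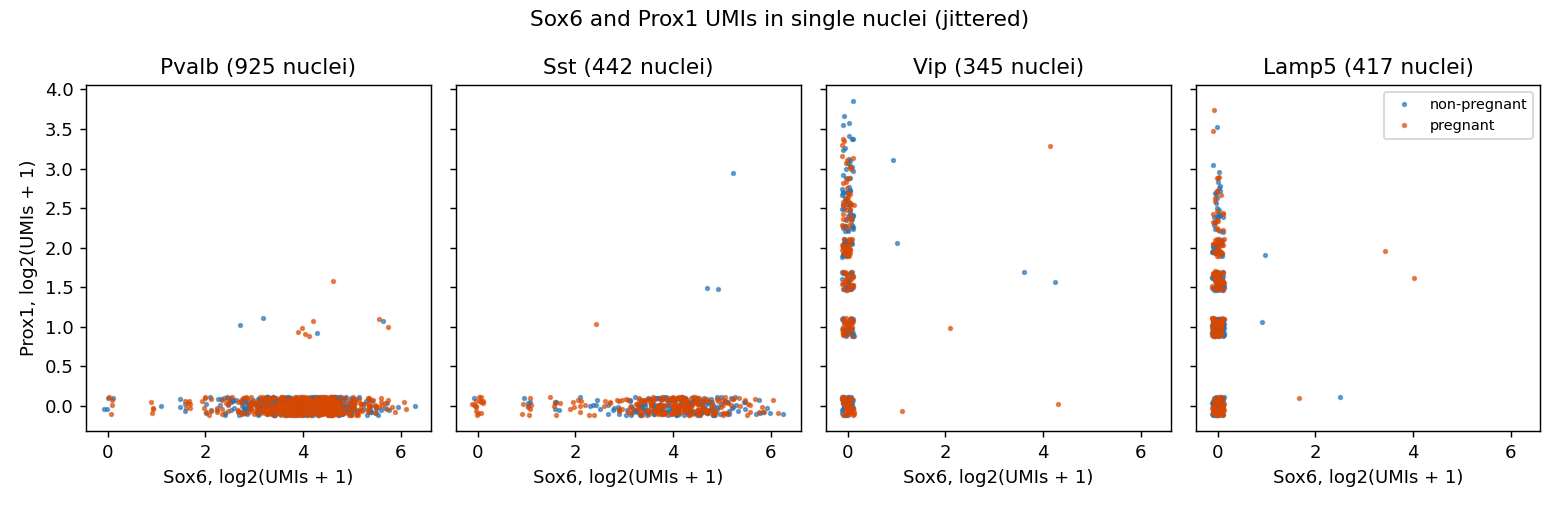
Sox6 against Prox1 in single nuclei of 4 interneuron classes, both as log2(UMIs + 1) with a small jitter, non-pregnant in blue and pregnant in orange. Pvalb and Sst nuclei lie along the Sox6 axis, Vip and Lamp5 nuclei along the Prox1 axis, and the 12, 4, 6 and 4 nuclei with both genes lie off the axes.

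Lhx6 and Satb1 followed Sox6 by class. Lhx6, the factor upstream of Sox6 in cells of the medial eminence, stood at 45.8, 45.7, 48.9 and 42.2 CPM in Pvalb and at 58.5, 62.1, 41.4 and 50.2 CPM in Sst neurons. It was at most 1.39 CPM in any Vip library and at most 2.97 CPM in any Lamp5 library. An Lhx6 UMI was found in 48.4% of Pvalb, 51.4% of Sst, 0.580% of Vip and 1.68% of Lamp5 nuclei, against 0.328% of excitatory nuclei. Thinned to 4000 UMIs, the Pvalb and Sst shares were 16.3% and 16.5%, so the absence of an Lhx6 UMI in a Pvalb or Sst nucleus says little at this depth. Satb1, a chromatin organiser, stood at 215, 201, 239 and 214 CPM in Pvalb and 343, 343, 355 and 307 CPM in Sst neurons. In the Vip class it held 40.9, 36.4, 29.3 and 27.7 CPM, and in the Lamp5 class 6.07, 4.74, 7.11 and 14.99 CPM. All Sst libraries were above all Pvalb libraries, those above Vip, and Vip above Lamp5. Satb1 is not particular to interneurons: 74.1% of excitatory nuclei carried it, at 137 CPM.

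Prox1 showed the opposite pattern. It stood at 249, 278, 223 and 247 CPM in Vip and 122, 108, 113 and 142 CPM in Lamp5 neurons, and at no more than 1.58 CPM in Pvalb and 5.25 CPM in Sst libraries. A Prox1 UMI was found in 77.7% of Vip and 73.4% of Lamp5 nuclei, 1.30% of Pvalb, 0.905% of Sst and 0.607% of excitatory nuclei. All Vip libraries lay above all Lamp5 libraries. The Sncg class held 131 CPM. Oligodendrocytes carried Prox1 as well, in 47.4% of 1646 nuclei.

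Npas1, Npas3 and Maf did not follow the line between the eminences. Npas1 was near 0 in Pvalb, with 0 to 0.870 CPM, and stood at 53.2, 49.2, 48.4 and 35.3 CPM in Sst, 91.4, 65.3, 65.6 and 72.7 CPM in Vip and 8.77, 8.30, 6.22 and 8.57 CPM in Lamp5 neurons. Every Vip library was above every Sst library, and Sncg was highest with 199 CPM over the 4 libraries. Npas3 was present in every class: 573, 639, 687 and 638 CPM in Pvalb, 1413, 1351, 1449 and 1324 in Lamp5, 1849.95, 2133, 2252 and 1815 in Sst, 3324, 3105, 3294 and 3459 in Vip and 5824 in Sncg over all libraries. Neighbouring classes in that order did not overlap in any library. Maf stood at 448, 488, 435 and 442 CPM in Sst, above all other libraries, and at 245, 240.6, 207 and 224 CPM in Pvalb, 256, 281, 236 and 271 in Vip and 229, 240.2, 204 and 212 in Lamp5, where the 3 classes overlapped. A Maf UMI was present in 92.1% of Pvalb, 91.0% of Sst, 75.1% of Vip and 88.5% of Lamp5 nuclei, and in 11.3% of excitatory nuclei.

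Within a class the factors also varied between clusters, as the plot of shares by cluster shows. Npas3 split the Lamp5 class: it was in 21.6% of nuclei of cluster 12 (63.0 CPM), 67.8% of cluster 7 (982 CPM) and 100% of cluster 18 (4993 CPM), in the same order in each library. Cluster 12 was led by Pde11a and Sv2c, cluster 7 by Ndnf and cluster 18 by Zfp804b and Rxfp1. All 27 Lamp5 nuclei with Npas1 also had Npas3, and Npas1 reached 29.5% in cluster 18 and 0% of the 190 nuclei of cluster 12. Npas1 split the Sst class, with 5.49% of nuclei in cluster 5, 37.1% in cluster 8, 53.6% in cluster 3 and 90.5% in cluster 21. In the Vip class it ran from 18.1% in cluster 17 to 76.1% in cluster 16, and cluster 16 was lowest for Prox1, at 38.0%, against 82.4% to 92.4% in the other Vip clusters. Satb1 had 0 UMIs in the 20 nuclei of cluster 11, which was led by Unc5b among other genes (a count of 0 allows a share of up to 15% of nuclei with a UMI, which does not limit nuclei that express the gene), and 19 of the 20 carried Sox6. These cluster levels describe the nuclei that were clustered and carry no test.

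**Figure D3:**
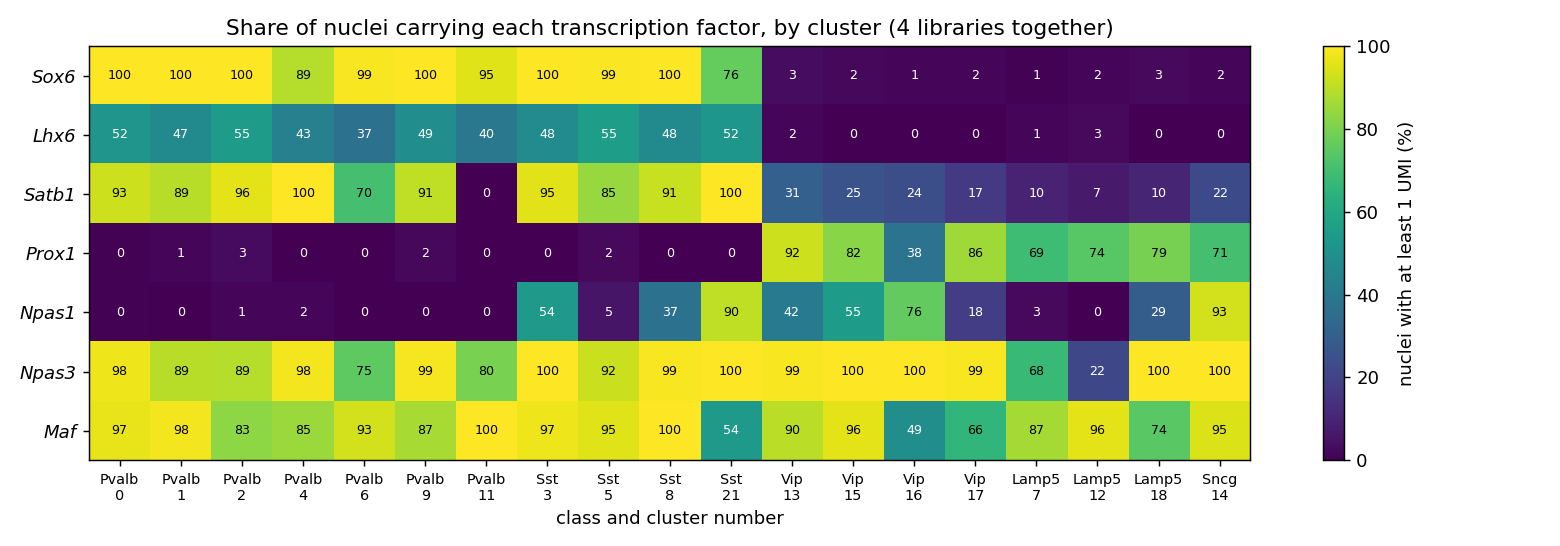
Percent of nuclei with at least 1 UMI (colour and printed number) for the 7 transcription factors in the 19 named clusters, the 4 libraries together. Sox6 is at 76% or more in the Pvalb and Sst clusters and at 3.39% or less elsewhere, while Npas1 and Npas3 differ between clusters of 1 class.

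Sox6 was not even across the clusters that carried it. The other 8 Pvalb and Sst clusters, outside the 3 named next, held 734 to 1415 CPM by library, such as 1147, 1155, 1175 and 1201 CPM in cluster 0 of the Pvalb class and 1333, 1415, 1373 and 1147 in cluster 5 of the Sst class. A pair of clusters with the leading gene Pard3b in common lay lower: cluster 4 of the Pvalb class (53 nuclei) at 286, 416, 313 and 298 CPM, and cluster 21 of the Sst class (63 nuclei) at 573, 419, 309.8 and 107 CPM. Cluster 11, with 20 nuclei, held 366, 589, 446 and 541 CPM. Nuclei without a Sox6 UMI gathered in the low pair: 15 of 16 such Sst nuclei were in cluster 21 and 6 of 8 such Pvalb nuclei in cluster 4. In cluster 21 the carriers were 9 of 10, 15 of 15, 16 of 21 and 8 of 17 nuclei, so both pregnant libraries held lower shares and levels than both non-pregnant ones. That cluster was chosen for mention after its values were seen, and no test was made of it. The share of all genes that were lower in this way was not computed for the cluster. In the sums of the whole Sst class it was 17.2%. Cluster 21 was also the Sst cluster with the highest Satb1 (718 CPM) and the lowest Maf (65.9 CPM) over the 4 libraries. The unclassed cluster with Sst as its best list held Sox6 in 85 of 85 nuclei, at 1452 CPM. Cluster 21 had a weak name: its mean score on the Sst list was 0.499, against 1.17 to 1.45 in the other named Sst clusters. The unclassed cluster scored 1.28 on that list.

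**Figure D4:**
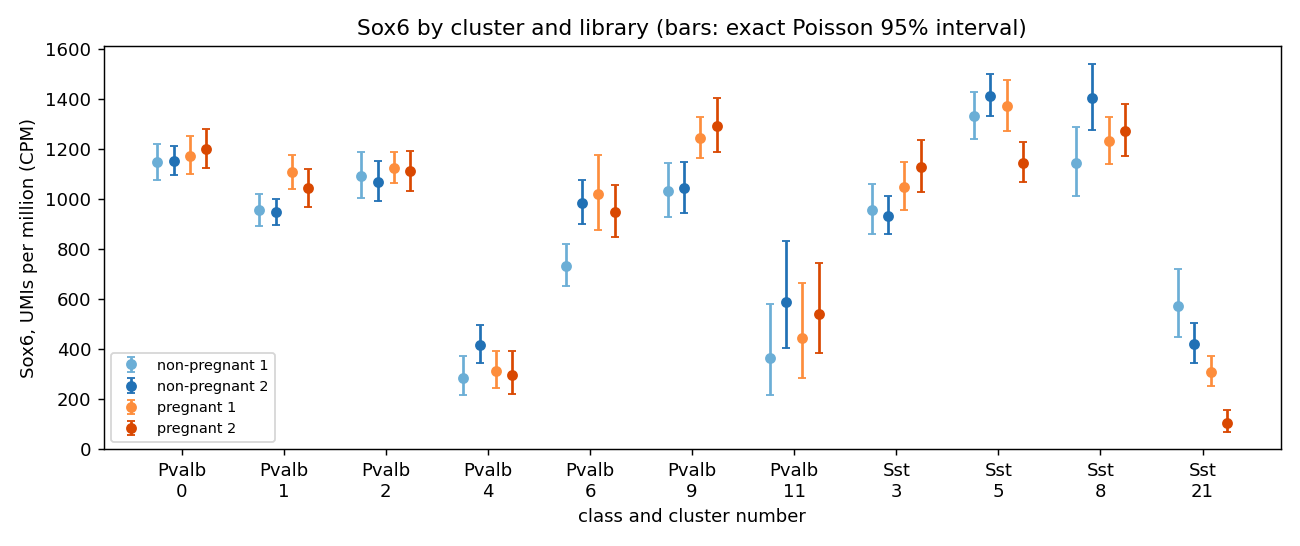
Sox6 in CPM in each Pvalb and Sst cluster by library, with exact Poisson 95% intervals that cover counting error only. Clusters 4, 11 and 21 lie below the rest, and in cluster 21 the points run from 573 and 419 CPM (non-pregnant) to 309.8 and 107 CPM (pregnant).

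Pregnancy was compared in the UMI sums of each class with edgeR's quasi-likelihood test, adjusted over all genes tested by the Benjamini-Hochberg method. None of the 22 tests of a member in a class passed at an adjusted p of 0.05 (0 of 5 in Pvalb, 0 of 6 in Sst, 0 of 6 in Vip and 0 of 5 in Lamp5, without Sox6 in Lamp5), and adjusted p ran from 0.557 to 0.9996. Over all genes, 0.36% passed in Pvalb, 0.255% in Sst, 0.0115% in Vip and 0.528% in Lamp5, so a count of 0 among so few members lies near the background. At an unadjusted p below 0.05 there were 3 of 22 (1 of 5 in Pvalb, 1 of 6 in Sst, 0 of 6 in Vip and 1 of 5 in Lamp5), where 8.79%, 6.79%, 5.61% and 7.51% of all genes in those classes lay below it. DESeq2 also called 0. In the sum of all gated nuclei 0 of 7 passed (0.225% of all genes did). The pregnancy effect in Pvalb and Sst against that in Vip and Lamp5 gave 0 of 6, without Sox6, with 0.143% of all genes. Whether the 2 libraries of a group came from separate mice is stated only as biological replicates, and in sums of nuclei a change in the mix of nuclei and a change in RNA per nucleus cannot be told apart.

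Sox6 in Pvalb neurons was 979.9 ± 28.2 CPM without and 1079 ± 14.9 CPM with pregnancy (mean ± SD, n = 2 for either), a log2 fold change of 0.14 with a range of ± 2 SE from -0.05 to 0.33, and the groups did not overlap. In Sst neurons it was 1124 ± 6.11 and 1051 ± 6.30 CPM, a log2 fold change of -0.09 (-0.33 to 0.14). Again the groups did not overlap, though without doublet removal the log2 fold change was 0.02. Cluster 21, low in Sox6, gave 10 of 97, 15 of 108, 21 of 118 and 17 of 119 Sst nuclei by library. The part of that mix in the Sst value was not tested. In Vip neurons the range reached from -2.05 to 3.38, so a change of this size could not be told there. Non-overlap of this kind was common: it was found for 37.2% of all genes tested in Pvalb, 34.8% in Sst, 34.6% in Vip and 35.9% in Lamp5. Among the members it was found for 2 of 5 in Pvalb (Sox6 higher, Maf lower in pregnant), 4 of 6 in Sst (Sox6, Lhx6, Npas1 and Maf, all lower, as were 17.2% of all genes), 2 of 6 in Vip (Satb1 and Prox1, both lower, as were 16.3% of all genes) and 2 of 5 in Lamp5 (Satb1 higher, Maf lower). In all gated nuclei it was found for 1 of 7, Maf, which was lower in pregnant, and for 35.7% of all genes.

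The 3 values at an unadjusted p below 0.05 were small or rested on few UMIs. Lhx6 in Sst neurons gave a log2 fold change of -0.40 (SE 0.187, edgeR adjusted p = 0.676), from 58.5 and 62.1 to 41.4 and 50.2 CPM. Maf in Pvalb neurons gave -0.18 (SE 0.083, adjusted p = 0.557), from 245 and 240.6 to 207 and 224 CPM. Satb1 in Lamp5 neurons gave 1.07 (SE 0.488, adjusted p = 0.595) on 9, 8, 8 and 21 UMIs by library. The last of these counts belonged to pregnant 2, where 13 of the 21 UMIs were in cluster 7. The log2 fold change was 0.42 without pregnant 2 and 1.44 without pregnant 1. Excitatory nuclei carry Satb1, and the excitatory list of 6 genes summed to 31.0 and 40.3 CPM in the non-pregnant and 61.4 and 57.1 CPM in the pregnant Lamp5 sums, with 0, 2, 0 and 0 of the 6 at 0. The part of that difference in the Satb1 value was not tested.

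**Figure D5:**
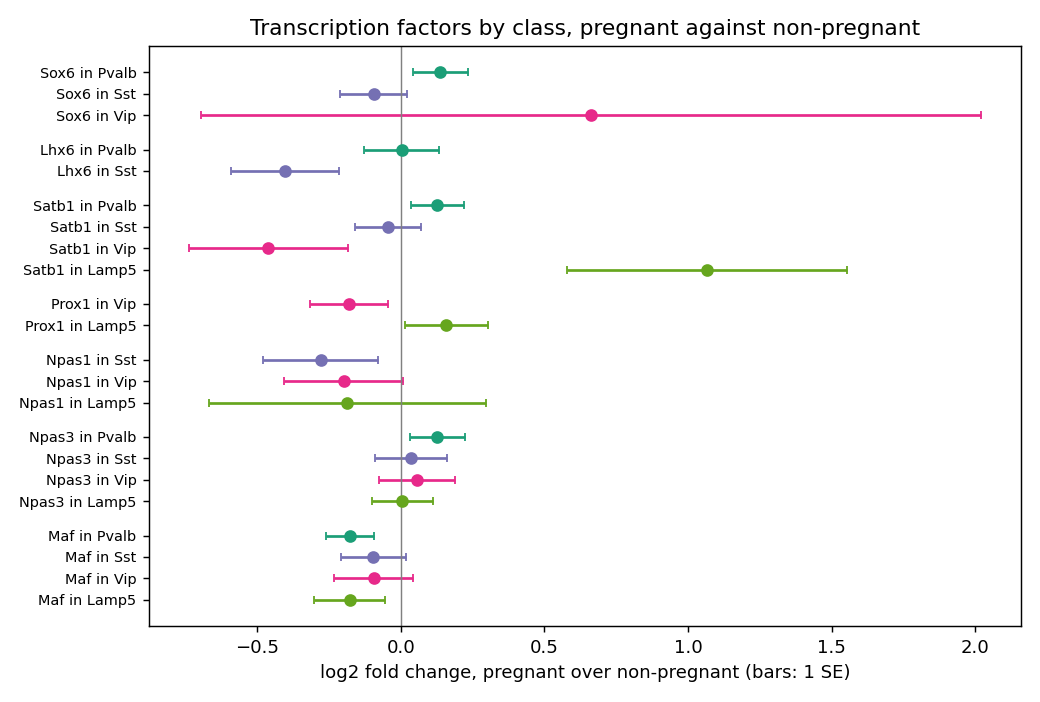
Log2 ratio of pregnant to non-pregnant levels for each transcription factor tested in each class, with bars of 1 SE from edgeR, coloured by class. Values lie between -0.46 and 0.66 apart from Satb1 in Lamp5 neurons at 1.07, and the widest bars belong to sums with few UMIs.

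Other genes of the same programmes were taken from lists. Over all genes, 0.36% passed in Pvalb, 0.255% in Sst, 0.0115% in Vip and 0.528% in Lamp5. Counts of 0 in lists of this length therefore lie near the background. In the list of the medial eminence programme (12 genes, among them Nkx2-1 and Sox5) 0 of 10 tested passed in Pvalb, 0 of 10 in Sst, 0 of 9 in Vip and 0 of 10 in Lamp5 neurons. In the caudal eminence list (12 genes, among them Nr2f2, Sp8 and Adarb2) 0 of 8, 0 of 7, 0 of 10 and 0 of 10 passed, and among pan-interneuron factors such as Dlx1 0 of 8, 0 of 7, 0 of 7 and 0 of 8. Of the relatives and partners of the 7 genes (19 genes) 0 of 12, 0 of 11 and 0 of 9 passed in Pvalb, Sst and Vip, and 1 of 11 rose in Lamp5. This was Ldb2, a cofactor that binds LIM-homeodomain factors such as Lhx6, with a log2 fold change of 1.05 (SE 0.25, edgeR adjusted p = 0.0159). The call was lost without non-pregnant 2 (0.96, adjusted p = 0.162), without pregnant 2 (0.73, 0.743) and, among other settings, with DESeq2 (1.04, adjusted p above 0.99). Lhx6 itself was at or below 2.97 CPM in that class. The median log2 fold change of these 11 genes in Lamp5 was 0.17, against 0.00 for all genes tested (-2.68e-04).

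Genes with the pattern most like each factor were found by Pearson correlation of log2 CPM over the 16 sums of 4 classes by 4 libraries, among 6119 genes with a mean of at least 20 CPM. The 16 sums share 4 libraries and 4 classes, so the values describe the class pattern and carry no p. Sox6 was most like Far2 (0.98), Grm3 (0.98) and Oprd1 (0.97), and Lhx6 most like Kcnq3, Rbfox1 and Rab3gap2 (0.97 to 0.98). Satb1 was most like Kctd8, Cdh7 and Mkx (0.97 to 0.98), and Prox1 most like Sh3bgrl, Fam184b and Egfr, the receptor of epidermal growth factor (0.98 for all 3). Npas1 was most like Cplx2, Fhl1 and Pantr1 and Npas3 most like Macrod2, Cplx2 and Sorcs2, so Cplx2, which encodes the release protein complexin 2, stood beside both. Maf had the loosest matches, Tmtc4, Tmcc3 and Smarca2 (0.95 for all 3). Among the 7 themselves the closest pairs were Npas1 with Npas3 (0.97), Sox6 with Satb1 (0.96) and Sox6 with Lhx6 (0.95), and the most opposed was Lhx6 with Prox1 (-0.97).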

How the data were processed

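Single-nucleus 3' RNA libraries of 4 mouse cortex samples were analysed. The authors deposited matrices of whole-number UMI counts per gene and barcode. The software was Cell Ranger 10.0.0 with build GRCm39, per the submitters' processing notes. Genes carry the symbols that the deposited files pair with Ensembl identifiers. The members and gene lists were chosen with earlier results of these data known.

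From 26816 barcodes, nuclei with at least 500 genes and at most 5% mitochondrial UMIs were kept (26350). The top 5% per library by a doublet score (2 simulated doublets per nucleus, 60 neighbours) were left out, leaving 25033. Gated nuclei were clustered with scanpy 1.11.5 (2000 variable genes without the 7 members, 30 components, 15 neighbours, Leiden resolution 1, 23 clusters) and named from 13 marker lists. The score of 2.5 above which another list left a cluster unnamed was set after the clusters were seen. Names rebuilt in this way may differ from the study's own.

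UMI counts were summed per class and library, the replicate being the library. CPM is a gene's share of the UMIs of its sum times 1e6, not scaled to gene length, so levels are not compared between genes. The sums were tested with edgeR 4.0.16 in R 4.3.3 (quasi-likelihood, robust, TMM, filterByExpr with a minimum count of 10, adjusted p below 0.05 called). The difference between groups of classes was an interaction with the library as a block. In counts simulated from the real means, 2-fold changes were recovered in 89% of genes in Pvalb, 78% in Sst, 62% in Vip and 74% in Lamp5 sums. False calls there numbered 18, 10, 7 and 11. Genes with the lowest means were not among those changed, and the spread was the trend over genes. These shares are therefore not the power for a single member, least of all for one with few UMIs. Alternatives were DESeq2 1.42.0, RLE size factors, no filter, a replicate block, each library left out, no doublet removal, a stricter gate, other class rules and thinning to 4000 UMIs (11 gated nuclei were shallower). Members are named in every class, list genes where they passed, and the 3 genes most like each member (log2 CPM with a prior count of 2, predicted genes left out). Some list genes are not reported here.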

Additional observations from a re-analysis of the deposited data

Results flagged for a closer look

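Satb1 and Sox6 each had a pair of classes in which the groups lay apart in opposite directions. Satb1 was higher in both pregnant libraries in Lamp5 neurons (log2 fold change 1.07) and lower in both in Vip neurons (-0.46). Sox6 was higher in both pregnant libraries in Pvalb neurons (0.14) and lower in both in Sst neurons (-0.094). The difference between those classes was not tested, and none of the 4 values passed edgeR's test in its own class (adjusted p 0.595, 0.923, 0.748 and 0.960). The groups also lay apart for 37.2% of all genes tested in Pvalb, 34.8% in Sst, 34.6% in Vip and 35.9% in Lamp5. The share of all genes with opposite directions in a pair of classes was not computed.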

How the results depend on the processing

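The counts of all genes called by edgeR (44 in Pvalb, 27 in Sst, 1 in Vip, 53 in Lamp5, 33 in all gated nuclei, 19 for the difference between classes) depended on the processing. DESeq2 called 22, 6, 0 and 5 in the 4 classes and 0 for the difference. Without the filter on low counts the counts were 145 in Pvalb, 46 in Sst, 9 in Vip, 177 in all gated nuclei and 40 for the difference. Without doublet removal they were 15 in Sst, 2 in Vip and 32 in Lamp5. With classes by marker gene alone they were 5 in Sst, 3 in Vip and 2 in Lamp5, and with the stricter gate 23 in Pvalb, 11 in Sst and 9 in Lamp5. Thinned to 4000 UMIs they were 20, 4, 0 and 4 in the 4 classes and 7 in all gated nuclei. Leaving out 1 library gave 10 to 161 in Pvalb, 33 to 81 in Sst, 0 to 26 in Vip, 26 to 83 in Lamp5, 74 to 258 in all gated nuclei and 19 to 34 for the difference. The fewest in Pvalb came without pregnant 1 and the most without non-pregnant 1.

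Replicate numbers are shared between the groups. Taken over all genes at once, deviations of same-numbered libraries did not go together (correlations of -0.05 to -0.01). Such a correlation does not speak for single genes, and whether same-numbered libraries were handled together was not tested. With the replicate block the counts were 143 in Pvalb, 46 in Sst, 0 in Vip and 156 in all gated nuclei, and no member passed. Lhx6 in Pvalb was -0.0091 with the block.

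For the 7 genes, 343 of 391 alternative values kept their direction and side of the threshold, 46 changed sign without being called, and 2 passed. These were Satb1 in Lamp5 with the stricter gate (log2 fold change 2.01, edgeR adjusted p = 0.0362) and Satb1 in all gated nuclei without pregnant replicate 2 (0.34, 0.0476). The stricter gate also redrew the Lamp5 class. The Sox6 carriers it added had no class in the main clustering. They held 0 and 3 Satb1 UMIs in the non-pregnant libraries and 0 to 15 per nucleus in the pregnant ones. The part of such nuclei in the Satb1 value, and the cause of either call, was not tested. Signs changed with the stricter gate for Npas1 in all gated nuclei (0.19) and Sst (0.38), Npas3 in Lamp5 (-0.070) and Vip (-0.0071), Lhx6 in Pvalb (-0.12), Satb1 in Sst (0.24) and Vip (0.16) and Prox1 in Vip (0.11). With thinning they changed for Maf (0.023) and Npas3 (-0.15) in Lamp5, Lhx6 in Pvalb (-0.12), Satb1 in Sst (0.0061), and Npas3 (-0.036) and Prox1 (0.13) in Vip. With classes by marker gene they changed for Npas1 in Lamp5 (0.21), Lhx6 in Pvalb (-0.026), Npas3 (-0.054) and Sox6 (0.16) in Sst and Sox6 in Vip (-1.21). Sox6 in Sst (0.020) and Lhx6 in Pvalb (-0.012) changed without doublet removal, Npas3 in Lamp5 (-0.0082) without the filter, and Lhx6 in Pvalb with DESeq2 (-0.0025).

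With 1 library left out, signs changed in all gated nuclei for Lhx6 (-0.21 to 0.085), Npas1 (-0.28 to 0.051), Npas3 (-0.0034 to 0.18), Prox1 (-0.42 to 0.0031) and Satb1 (-0.0078 to 0.34). In Lamp5 they changed for Npas3 (-0.088 to 0.092) and Prox1 (-0.0011 to 0.28), in Pvalb for Lhx6 (-0.16 to 0.13) and Satb1 (-0.0026 to 0.24), in Sst for Npas3 (-0.17 to 0.21) and Satb1 (-0.20 to 0.088), and in Vip for Npas1 (-0.39 to 0.045) and Sox6 (-2.25 to 1.68). For the difference between classes they changed for Lhx6 (-0.98 to 0.27), Npas1 (-0.22 to 0.33), Npas3 (-0.050 to 0.28) and Satb1 (-0.14 to 0.37).

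Ldb2 in Lamp5 neurons kept its direction under all 12 alternatives (log2 fold change 0.69 to 1.40) and passed the threshold in 5. It did not pass with DESeq2, without doublet removal, with the stricter gate, with classes by marker gene, with thinning, without non-pregnant replicate 2 or without pregnant replicate 2 (adjusted p 0.162 to 0.99998).

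Sox6 in Lamp5 neurons moved with the class rule. The 7 UMIs in 3 nuclei (non-pregnant) and 26 in 3 (pregnant) became 62 in 5 and 243 in 11 with the stricter gate, 22 in 3 and 50 in 4 with classes by marker gene, and 2 in 1 and 3 in 3 with thinning. With the Slc17a7 limit lifted they were 7 in 3 and 167 in 8. Carriers gained under any of these settings lay outside the Lamp5 class in the main clustering. Depth limits the sums that hold few UMIs, such as Lhx6 in Vip and Lamp5 neurons, with 0 to 5 per library.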

Other observations

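The 58 Sncg nuclei, 18, 11, 18 and 11 by library, were too few for a test. They held Npas1 at 235, 229.8, 149 and 216 CPM and Npas3 at 5694, 5653, 5979.9 and 5872 CPM. Prox1 stood there at 163, 124, 124 and 118 CPM, and Satb1 at 9.04, 9.19, 24.8 and 39.2 CPM on 2, 2, 9 and 8 UMIs. Lhx6 had 0 UMIs in all 58.

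The unclassed cluster of 85 nuclei with Sst as its best list held Satb1 at 704, 746, 625 and 559 CPM and Npas1 at 118, 137, 103 and 110.2 CPM. Both genes were lower in both pregnant libraries there, without a test. The share of all genes that were lower in this way was not computed for the cluster. In the sums of the 4 classes it was 16.3% to 18%.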
